A study of Mus musculus with 36 samples.

Results

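Epididymal white adipose tissue (eWAT) of 6 male CCL19-KI mice without a ligature label was compared, 3 fed a normal diet (ND) and 3 fed a 40% fat diet (40% HFD), out of 36 mice in the deposited table. The members were the 3 libraries labelled Adipoq-CCL19-KI with 40%HFD feeding and the 3 with ND feeding for 10 weeks, and neither group's labels name a ligature. The mice were of the C57BL/6 strain, began their diet at 6 weeks of age and were euthanized at 16 weeks. All 6 carried the *Ccl19* gene inserted into the *Adipoq* locus, so that the chemokine is made where the adiponectin promoter is active, in adipocytes. Mice of the other groups were WT, ligatured or fed a 60% fat diet (60% HFD), with 3 mice in each of the 12 groups. The paper's methods and the series' own design text both mention ligated mice only for this tissue, so that the absence of ligature here rests on the sample labels.

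White fat stores surplus energy as triglyceride, and an expanding fat pad is known for larger adipocytes that make more leptin, more lipid droplet coat proteins and a remodelled matrix and capillary bed. Adipocytes also make fatty acids from glucose under the transcription factor SREBP-1c. Proteins bound for secretion are folded in the endoplasmic reticulum, whose chaperones are induced together by the unfolded protein response when the load is high. CCL19 is a chemokine that draws CCR7-bearing dendritic cells and T cells.

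*Ccl19* itself had normalized read counts (CPM, scaled by the authors to a common library size and below called normalized CPM) of 16.4, 16.0 and 11.8 with ND and 27.5, 14.4 and 18.6 with 40% HFD, and the groups overlapped. The log2 fold change (40% HFD against ND, here and below on log2(normalized CPM + 1), with its standard error) was 0.39 ± 0.72. *Gm2564*, a *Ccl19*-like gene annotated nearby on the same chromosome with which reads may be shared, was at 15.3 to 57.6 normalized CPM in the 6 libraries. None of the 6 libraries went against its genotype label, but 2 others did. The library labelled WT ND replicate 2 had 19.2 normalized CPM of *Ccl19* and 41.9 of *Gm2564*, and the library labelled CCL19-KI 60% HFD replicate 3 had 0.687 and 0. The other 17 WT libraries had 0.507 to 4.51 of *Ccl19* and the other 17 CCL19-KI libraries 5.57 to 34.6. Neither of these 2 libraries is among the 6. For the differences between diet effects and for 60% against 40% HFD, genes with an adjusted p below 0.05 are counted with and without them. The WT diet comparison and the counts of list members are given with them only. The 6 libraries held 16094230 to 20248517 reads, so that 1 read was worth 0.0472 to 0.0669 normalized CPM.

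The eWAT label was checked against its markers. All 15 adipocyte markers were measured, and the mean of their log2(normalized CPM + 1) was 8.73, 8.17 and 7.92 with ND and 9.45, 8.84 and 8.70 with 40% HFD. RNA of other tissues was present too. The 18 hepatocyte markers together took 0.145, 3.79 and 4.21% of the reads with ND and 1.06, 4.90 and 3.23% with 40% HFD, and albumin (*Alb*) was at 397, 11700 and 13696 normalized CPM against 3877, 23726 and 14444. ND replicate 1 thus had much less of the hepatocyte RNA than the other 5 mice. The exocrine pancreas list had a mean log2 value of 0.54, 4.16 and 3.80 with ND and 0.45, 0.65 and 0.54 with 40% HFD, so that ND replicates 2 and 3 stood above the other 4 mice. The epididymis list showed the same 2 mice on top, at 0.27, 4.47 and 2.48 against 0.08, 0.35 and 0.06.

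**Figure D1:**
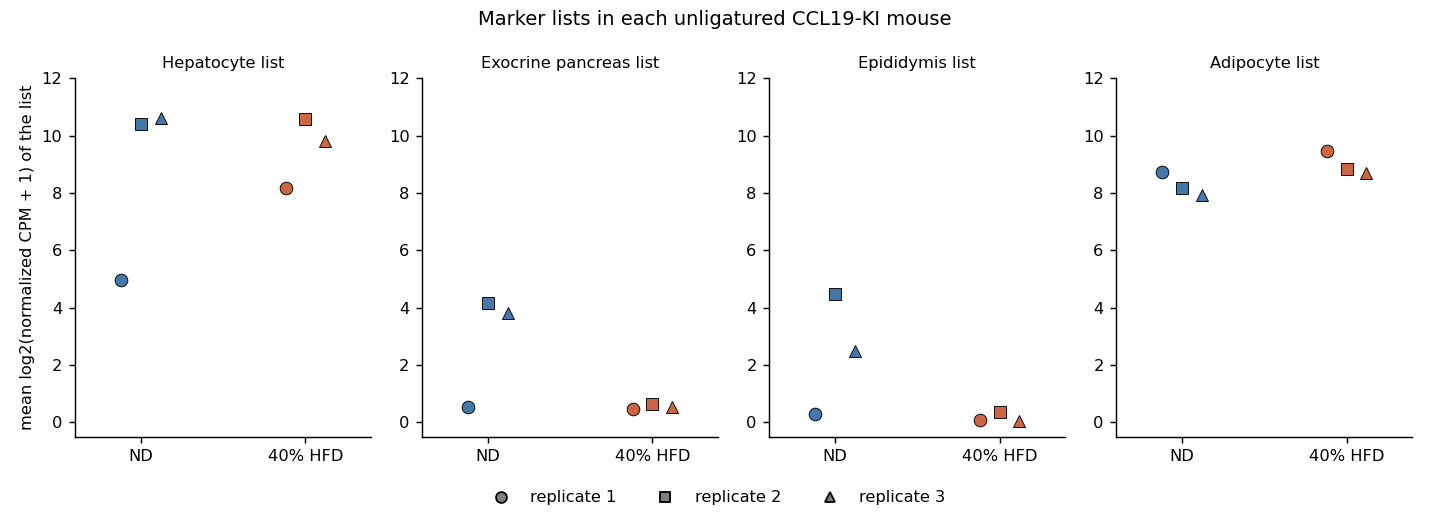
Mean log2(normalized CPM + 1) of 4 marker lists in each of the 6 mice, with blue symbols for ND and orange for 40% HFD. The symbol shape gives the replicate number, and the labels name no pairs of mice. The hepatocyte list lies at 4.97 in ND replicate 1 and at 8.18 or more in the other 5 mice, the pancreas list above 3 in ND replicates 2 and 3 only, and the adipocyte list between 7.92 and 9.45.

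No gene reached an adjusted p below 0.05 (limma, Benjamini-Hochberg over 16923 genes), and the lowest adjusted p was 0.896. At an unadjusted p under 0.05 there were 930 genes by limma and 781 by the edgeR quasi-likelihood test on recovered reads, which also called 0 genes after adjustment. The study's criteria for differentially expressed genes (DEGs), an unadjusted p no higher than 0.05 together with a ratio from 1.5 upward or from 0.67 downward, were met by 623 genes, 3.68% of those tested. Of these, 424 (2.51%) were higher and 199 (1.18%) lower with 40% HFD, and with edgeR the split was 310 to 250. The median log2 fold change of all genes tested was 0.00. For 12.7% of the genes (5.6% higher, 7.12% lower with 40% HFD) the values of the groups did not overlap, and 352 of the 623 DEGs (2.08% of all genes) were among them. Every DEG named below therefore carries an adjusted p of 0.896 or more in this comparison.

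The mean level of genes linked to the expansion of fat pads was higher in the 40% HFD mice than in ND replicates 2 and 3, but not than in ND replicate 1. On the log2 scale the mean of the list was 8.04, 5.87 and 6.24 with ND and 7.96, 7.82 and 7.80 with 40% HFD. Of the 16 fat expansion genes, 6 were DEGs, all higher, beside 2.51% of all genes, and the median log2 fold change of the list was 1.02. *Lep* (chr6:29060220-29073877, GRCm38), which encodes the satiety hormone leptin, was at 2199, 128 and 200 normalized CPM with ND and at 1397, 1565 and 1384 with 40% HFD. The 3 mice fed 40% HFD were close together, whereas ND replicate 1 exceeded them all and the other ND mice lay far lower. The log2 fold change of *Lep* was 1.91 ± 0.85 (adjusted p = 0.896, limma), and 0.81 with edgeR (adjusted p = 0.948). *Sfrp5* (chr19:42197971-42202252), an inhibitor of Wnt signals secreted by growing adipocytes, was at 211, 7.18 and 30.0 against 244, 179 and 191, a log2 fold change of 2.43 ± 0.81. *Npr3*, the clearance receptor for natriuretic peptides, was at 1255, 127 and 231 against 1401, 1107 and 966 (1.78 ± 0.65). *Fgf13*, an intracellular member of the fibroblast growth factor family, was at 62.4, 0.810 and 1.71 against 33.5, 60.7 and 36.9 (2.67 ± 1.04). In all 4 genes the groups overlapped through ND replicate 1 alone. With edgeR none of the 16 genes was a DEG, *Sfrp5* standing at 1.33 (adjusted p = 0.940). The other DEGs of the list were *Cav1* (1.36) and *Cavin1* (1.16), which build the caveolae of the adipocyte surface. In bulk tissue, fewer cells of a type and less RNA per cell cannot be told apart.

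The adipocyte markers had 4 DEGs of 15 tested, all higher, beside 2.51% of all genes, with a median of 0.74. *Plin1*, which coats the lipid droplet and guards it from lipases, was at 645, 234 and 192 normalized CPM with ND and at 1095, 797 and 679 with 40% HFD (1.45 ± 0.51). Its groups did not overlap. *Plin4*, another droplet protein, was at 1708, 946 and 1015 against 4909, 2545 and 2284 (1.37 ± 0.49), again without overlap. *Slc2a4*, the insulin-responsive glucose transporter, was at 42.7, 11.8 and 9.97 against 54.0, 43.6 and 39.7 (1.34 ± 0.58), and *Aqp7*, the glycerol channel, had a log2 fold change of 1.04. *Adipoq* was at 526, 436 and 309 against 1126, 647 and 584, without overlap, and was not a DEG (0.86 ± 0.58, adjusted p = 0.938, limma). Of the 15 adipokines tested, 3 were DEGs, all higher (*Lep*, *Sfrp5* and *Angptl4*), and of 21 genes for lipolysis and the lipid droplet, 3.

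**Figure D2:**
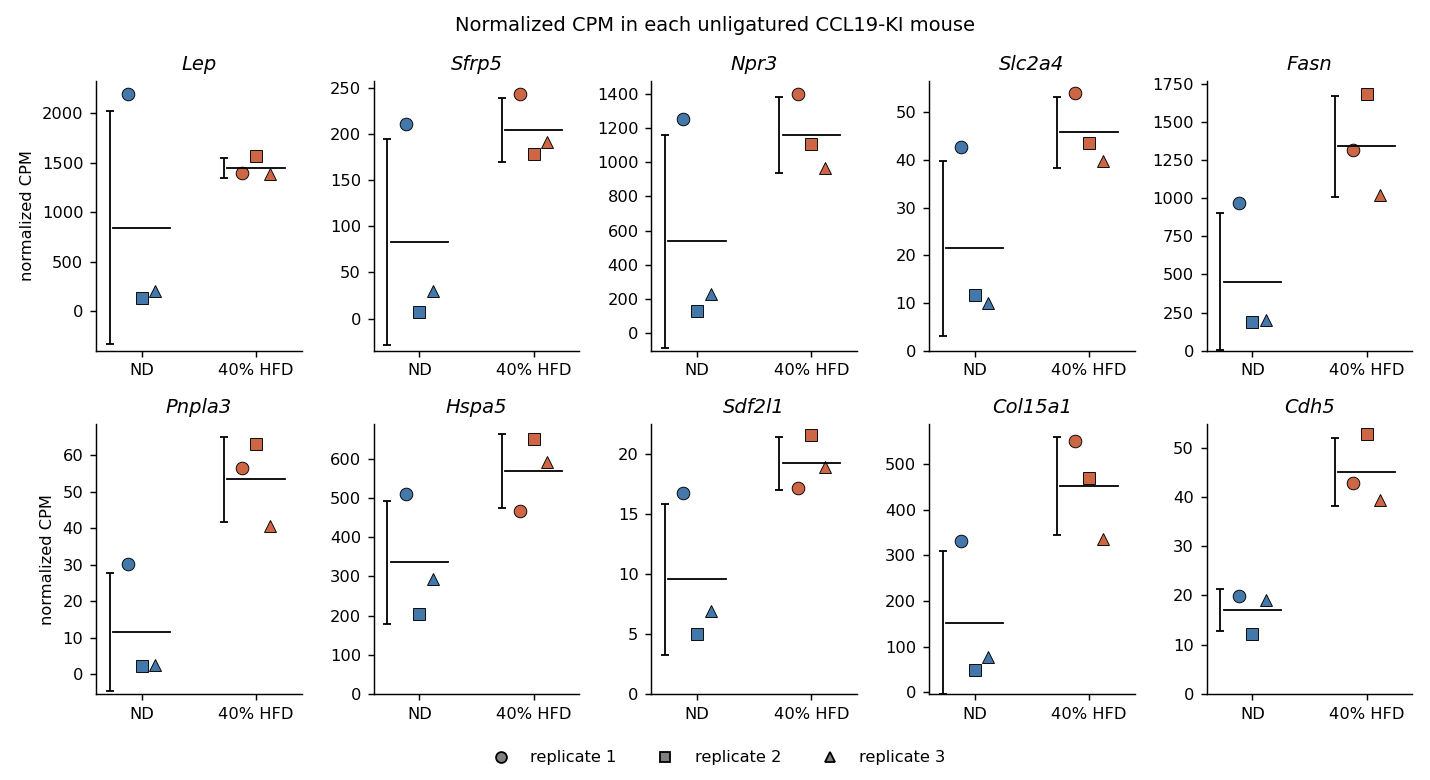
Normalized CPM of 10 DEGs in each mouse on linear axes, with blue symbols for ND and orange for 40% HFD, a horizontal line at the mean and a bar of ± 1 SD (n = 3). ND replicate 1 (blue circle) lies near the 40% HFD mice for *Lep*, *Sfrp5*, *Npr3*, *Slc2a4* and *Hspa5*. All 3 ND mice lie below all 40% HFD mice for *Fasn*, *Pnpla3*, *Sdf2l1*, *Col15a1* and *Cdh5*. For *Fasn*, *Sdf2l1* and *Col15a1*, however, ND replicate 1 lies just below the lowest 40% HFD mouse and well above the other ND mice.

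Some genes that make fatty acids were higher as well. Of 21 de novo lipogenesis genes, 6 were DEGs, all higher, beside 2.51% of all genes. The median of the list was 0.80, 16 of the 21 had a positive log2 fold change, and for 9 of the 21 all 40% HFD mice lay above all ND mice, beside 5.6% of all genes. *Srebf1* (chr11:60199089-60222581), the gene of SREBP-1c, was at 102, 46.9 and 43.9 normalized CPM with ND and at 144, 190 and 130 with 40% HFD (1.34 ± 0.48). *Fasn* (chr11:120805846-120824547), the fatty acid synthase, was at 970, 185 and 201 against 1314, 1684 and 1020 (1.98 ± 0.73). *Pnpla3* (chr15:84167837-84187236), a lipid droplet protein under SREBP-1c control, was at 30.3, 2.16 and 2.48 against 56.5, 63.1 and 40.5 (2.93 ± 0.85). None of the 3 overlapped. *Aacs*, which activates acetoacetate for lipid synthesis, differed from these in that the ND mice were alike, at 54.7, 54.2 and 56.5 against 117, 156 and 72.9 (0.99 ± 0.40). *G6pdx* and *Pgd*, which supply NADPH, completed the DEGs at 1.15 and 1.14. Most lipogenic genes are expressed in hepatocytes too. With the hepatocyte score of each mouse as a covariate, chosen after seeing the data, 10 of the 21 were DEGs and higher, beside 4.96% of all genes. The score set ND replicate 1 apart from the other 5 mice, and the part of hepatocyte RNA in the lipogenic genes was not tested.

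Of 24 genes of cholesterol synthesis and uptake, 4 were DEGs, all higher, beside 2.51% of all genes, and 23 of the 24 had a positive log2 fold change (median 0.56). *Insig1*, which holds SREBP in the endoplasmic reticulum when sterols suffice, was at 144, 51.5 and 51.7 normalized CPM with ND and at 141, 295 and 209 with 40% HFD (1.49 ± 0.56). The other 3 were *Nsdhl* (0.98), *Sc5d* (0.90) and *Mvk* (0.61), enzymes of the pathway. None of the 27 genes of fatty acid oxidation and acyl-CoA thioesterases was a DEG (median -0.08). Nor was any of 44 nuclear-encoded genes of oxidative phosphorylation (median -0.02) or of 12 thermogenic genes (median 0.19). Beside them, 3.68% of all genes were DEGs, a share at which lists of this size hold few or none. Of the 22 genes of fatty acid uptake and triglyceride synthesis, *Lpin1* (0.73) and *Dgat2* (1.37) were DEGs. Among 20 genes of insulin signalling, *Slc2a4* and *Hk2* (1.37) were, and among 17 adipocyte transcription factors *Srebf1* and *Zfp423*.

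The unfolded protein response list had the largest share of DEGs higher with 40% HFD among the 38 lists, 9 of 19 genes beside 2.51% of all genes, with a median of 0.74. The promoters of 4 of its DEGs are shown because they hold a known element, the endoplasmic reticulum stress response element (ERSE), spelled CCAAT, then 9 free bases, then CCACG. In the 250 bases before the RefSeq start site, searched on both strands, the element was present in 6 of the 17 list genes with a promoter entry and in 0.13% of all 27025 genes. The 6 were the DEGs *Hspa5*, *Hsp90b1*, *Pdia6* and *Calr* and, not DEGs, *Dnajc3* and *Creld2*. A match is a description and was not tested for binding. The 250 bases of the 4 DEGs, from RefSeq on GRCm38.p6 and written 5′ to 3′ on the strand of the gene, follow with the fixed bases of the element in capitals (on the opposite strand it reads CGTGG, then ATTGG).
Hspa5: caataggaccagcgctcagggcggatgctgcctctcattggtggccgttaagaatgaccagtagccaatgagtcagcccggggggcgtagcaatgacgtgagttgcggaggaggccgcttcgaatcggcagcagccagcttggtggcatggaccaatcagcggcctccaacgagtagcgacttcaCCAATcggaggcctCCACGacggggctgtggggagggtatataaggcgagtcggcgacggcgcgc
Hsp90b1: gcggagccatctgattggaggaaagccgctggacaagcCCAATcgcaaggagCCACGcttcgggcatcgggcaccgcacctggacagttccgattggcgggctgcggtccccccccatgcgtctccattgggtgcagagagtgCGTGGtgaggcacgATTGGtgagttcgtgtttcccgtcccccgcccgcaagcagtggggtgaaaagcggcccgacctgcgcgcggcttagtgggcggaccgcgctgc
Pdia6: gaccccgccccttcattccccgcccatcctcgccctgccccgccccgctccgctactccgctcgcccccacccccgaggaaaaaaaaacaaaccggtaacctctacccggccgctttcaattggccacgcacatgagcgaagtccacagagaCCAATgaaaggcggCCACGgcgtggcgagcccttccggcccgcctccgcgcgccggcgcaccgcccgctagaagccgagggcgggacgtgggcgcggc
Calr: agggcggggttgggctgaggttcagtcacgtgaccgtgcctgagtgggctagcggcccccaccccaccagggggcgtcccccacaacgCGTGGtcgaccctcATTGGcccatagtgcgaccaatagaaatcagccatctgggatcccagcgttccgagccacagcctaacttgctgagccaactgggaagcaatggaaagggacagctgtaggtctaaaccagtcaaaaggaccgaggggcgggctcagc
The 250 bases shown lie on chr2:34771840-34772089 (+) for *Hspa5*, chr10:86705445-86705694 (-) for *Hsp90b1*, chr12:17266339-17266588 (+) for *Pdia6* and chr8:84846932-84847181 (-) for *Calr*. The element starts 65 bases before the start site in *Hspa5* and 98 bases before it in *Pdia6*, and *Hsp90b1* holds it 2 times.

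*Hspa5*, which encodes the chaperone BiP, was at 511, 205 and 292 normalized CPM with ND and at 467, 652 and 591 with 40% HFD (0.85 ± 0.36). *Hsp90b1*, which encodes GRP94, was at 588, 301 and 430 against 693, 782 and 680 (0.76 ± 0.30). *Calr*, the lectin chaperone calreticulin, was at 550, 228 and 351 against 591, 662 and 621 (0.82 ± 0.30). Only in *Hspa5* of these did the groups overlap, again by ND replicate 1. *Sdf2l1*, a BiP cofactor, was at 16.8, 4.97 and 6.90 against 17.2, 21.6 and 18.9 (1.10 ± 0.47). *Pdia6* (0.87), *Pdia4* (0.76), *Hyou1* (0.83), *Edem1* (0.86) and *Sel1l* (0.73), which fold, exchange or dispose of secretory proteins, were the other DEGs. The transcription factors of the response were not DEGs. *Xbp1* had 144, 161 and 172 against 162, 173 and 165 (0.07 ± 0.18), *Atf4* had a log2 fold change of -0.12 and *Ddit3* of 0.11. With edgeR 8 of the 19 were DEGs.

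Collagens and matrix genes had 6 DEGs of 28, all higher, beside 2.51% of all genes, with a median of 0.75. The mean log2 level of the list was 8.49, 6.93 and 7.20 with ND and 8.50, 7.79 and 8.46 with 40% HFD, so that ND replicate 1 lay among the 40% HFD mice. *Col15a1* (chr4:47208161-47313167), a collagen of the basement membrane zone, was at 332, 49.0 and 78.0 normalized CPM with ND and at 549, 469 and 336 with 40% HFD (2.02 ± 0.62), without overlap. *Col4a2*, a main chain of basement membranes that adipocytes lie in, was at 511, 117 and 131 against 684, 656 and 470 (1.58 ± 0.54). *Fn1*, fibronectin, was at 997, 826 and 1293 against 1996, 1648 and 1665 (0.79 ± 0.31). *Col5a3* (1.92), *Col4a1* (1.18) and *Col5a1* (1.05) were the others, whereas the fibrillar *Col1a1* was not a DEG (0.26 ± 0.49).

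Endothelial markers had 4 DEGs of 15, all higher, beside 2.51% of all genes, and here ND replicate 1 lay close to the other ND mice. *Cdh5*, the cadherin of endothelial junctions, was at 19.9, 12.1 and 19.0 normalized CPM with ND and at 42.8, 52.7 and 39.4 with 40% HFD (1.37 ± 0.52). *Pecam1*, the CD31 antigen, was at 16.9, 14.1 and 18.8 against 36.6, 35.8 and 30.3 (1.00 ± 0.42). *Robo4*, a receptor that steadies vessels, was at 4.86, 4.91 and 5.13 against 9.42, 13.5 and 11.8 (1.06 ± 0.42). *Tek*, the angiopoietin receptor, had a log2 fold change of 0.77. In these 4 genes every 40% HFD mouse lay above every ND mouse. The liver and other tissues hold endothelial cells too, and the source of this RNA was not tested.

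Most immune lists gave no DEG, beside 3.68% of all genes, a share at which lists of this size hold few or none. None of the 18 lipid-associated macrophage genes was a DEG, although 17 of the 18 had a positive log2 fold change (median 0.62). *Spp1*, which encodes osteopontin, was at 1.04, 2.00 and 4.95 normalized CPM with ND and at 1.70, 10.6 and 10.0 with 40% HFD (1.08 ± 0.74, adjusted p = 0.940, limma), so that 40% HFD replicate 1 lay among the ND mice. *Gpnmb*, a glycoprotein of lipid-laden macrophages, was at 39.9, 29.7 and 23.0 against 42.0, 63.1 and 48.9 (0.73 ± 1.03), without overlap (adjusted p = 0.985, limma). None of 20 macrophage markers (median 0.22), 14 T and NK cell markers (0.01), 12 dendritic cell markers (0.11), 12 genes of MHC class II presentation (0.41), 5 genes of the CCL19 axis (0.08) or 19 interferon-stimulated genes (-0.29) was a DEG. All 40% HFD mice lay below all ND mice for 5 of the 19 interferon-stimulated genes and 3 of the 12 dendritic cell markers, beside 7.12% of all genes. They lay above for 0 of either list. *Ccr7*, the CCL19 receptor, was at 0.991, 0.864 and 1.47 against 0.851, 0.468 and 0.815 (-0.30 ± 0.23). Among 14 B cell markers *Ighm* alone was a DEG, at 325, 48.3 and 35.9 against 375, 297 and 245 (1.85 ± 0.66), while 11 of the 14 had a negative log2 fold change. *Cxcl1* (0.63) and *Nos2* (0.71) were the DEGs among 23 cytokine and chemokine genes tested. Of 12 genes the study names in eWAT and that were tested, *Cyp2b9* and *Cyp2a22* were DEGs, and the study chose those genes on mice of the same series.

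Of the lists for other functions and cell types in eWAT, several gave 1 DEG or none, beside 3.68% of all genes. All 16 proliferation genes had a positive log2 fold change (median 0.54), and for 8 of them all 40% HFD mice lay above all ND mice, beside 5.6% of all genes, but *Mcm5*, a subunit of the replicative helicase, was the only DEG, at 4.06, 2.05 and 2.71 normalized CPM against 4.25, 5.55 and 5.96 (0.69 ± 0.30). *Tnc*, the matrix protein tenascin C, was the DEG among 15 genes of TGF-beta and fibrosis, at 8.68, 0.486 and 1.24 against 11.7, 7.42 and 8.40 (1.65 ± 0.68). *Rgs5*, a pericyte gene, was the DEG among 10 smooth muscle markers, at 39.1, 32.4 and 51.1 against 82.3, 81.1 and 73.3 (0.95 ± 0.45), while the list's median was -0.59. *Wnt2* (0.67) was the DEG among 15 progenitor and fibroblast markers. None of the 19 clock genes (median -0.05), 12 mesothelial markers (-0.21), 10 kidney markers (0.34), 6 epididymis markers (-2.26), 10 male germ cell markers (-0.13), 7 skeletal muscle markers (-0.65) or 5 neuron markers (0.33) was a DEG.

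**Figure D3:**
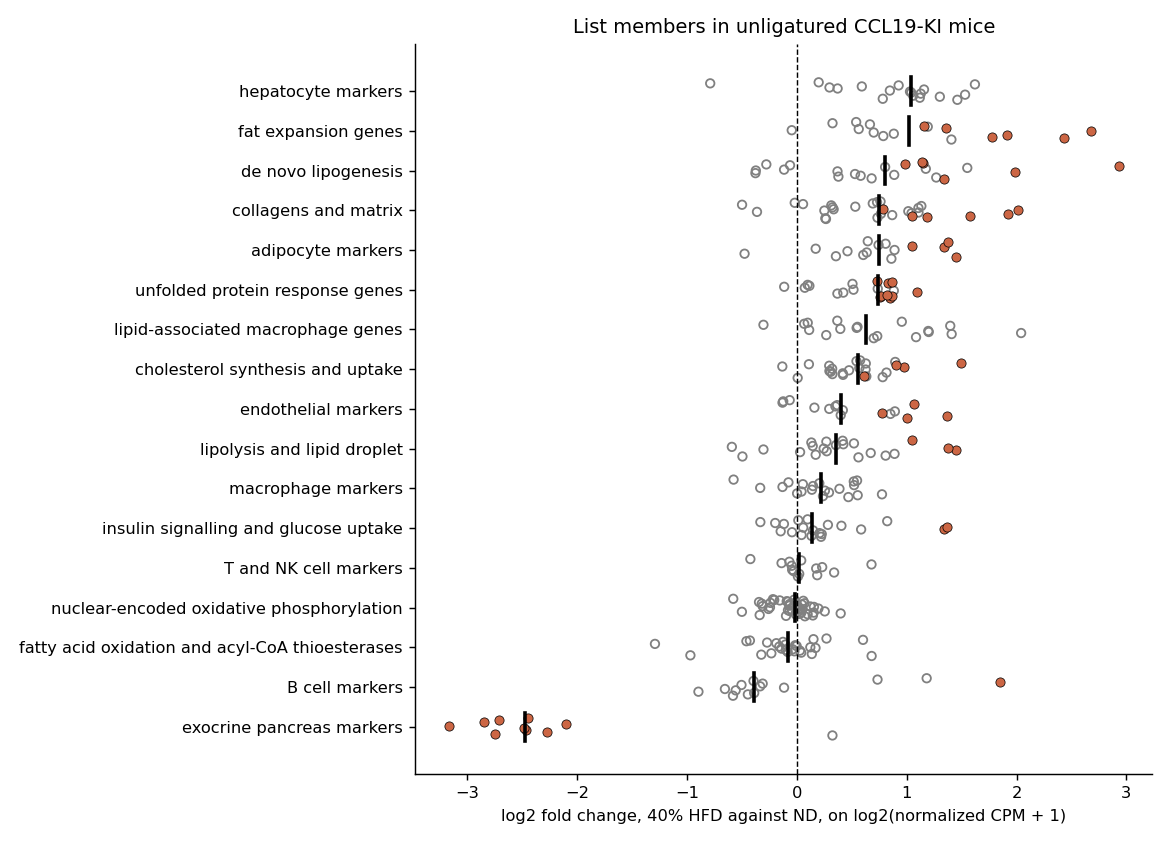
Log2 fold change of each tested member of 17 lists, 40% HFD against ND (x axis), with filled orange points for DEGs, open grey points for other genes, a black bar at each list's median and a dashed line at the median of all genes tested. The 9 filled points of the pancreas list lie below -2, and the filled points of the other lists lie above 0.

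The 15 largest differences upward among DEGs whose groups did not overlap included several genes that hepatocytes express. *Serpina7*, which encodes thyroxine-binding globulin, was at 0.330, 0.108 and 1.83 normalized CPM with ND and at 3.28, 27.5 and 12.0 with 40% HFD (2.86 ± 0.75). *Cyp2b9*, a cytochrome P450, was at 0.613, 0 and 0.531 against 0.668, 20.9 and 18.3 (2.72 ± 0.89). *Hsd3b5* (2.48) and *Cyp2c70* (1.99) were of the same kind. In each of these 4 genes 40% HFD replicate 1, which had the lowest hepatocyte share of its group, was also the lowest. ND replicates 2 and 3 had larger hepatocyte shares than 40% HFD replicate 3 and lower values of all 4 genes. None of the 18 hepatocyte markers was a DEG (median 1.03, range of the mean log2 score 4.97 to 10.6 with ND and 8.18 to 10.6 with 40% HFD). The part of hepatocyte RNA in these results was not tested. The other genes upward that are reported were *Slc5a7*, *Pnpla3*, *Tenm4*, *Col15a1*, *Fasn*, *Atp2a3*, *Fam83a*, *Hectd2os*, *Ret* and *Pakap*. *Slc5a7*, a choline transporter, had the largest log2 fold change of these, 3.19 ± 1.29, at 20.7, 0 and 1.42 against 27.3, 42.2 and 31.6. *Atp2a3*, a calcium pump of the endoplasmic reticulum, was at 37.6, 9.51 and 14.3 against 88.9, 61.8 and 64.8 (1.97 ± 0.49). *Pakap* overlaps its neighbours, and its reads are uncertain.

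Among DEGs, the largest differences downward included genes of the exocrine pancreas, most of which overlapped between the groups through ND replicate 1. Of 10 pancreas markers tested, 9 were DEGs, all lower with 40% HFD, beside 1.18% of all genes, with a median of -2.48. *Ctrb1*, chymotrypsinogen, was at 0, 36.7 and 24.9 normalized CPM with ND and at 0, 0.267 and 0.0627 with 40% HFD. *Cel*, bile salt-activated lipase, was at 0.0472, 17.0 and 13.9 against 0 in all 3, at least 54.1-fold lower from the floor of 3 reads, and *Prss2*, a trypsinogen, was at least 27.5-fold lower. Both rest on ND replicates 2 and 3, since ND replicate 1 held 1 read of each. Pancreas lies close to visceral fat, and its part in other results was not tested. *Mt1*, a metallothionein, was at 77.5, 253 and 83.1 against 54.7, 37.4 and 46.0 (-1.35 ± 0.47), *Cntnap1* had a log2 fold change of -1.20 and *Adam33* of -0.99. *Rps13*, a ribosomal protein gene that shares reads with pseudogenes, was at 108, 132 and 143 against 66.5, 63.4 and 57.4 (-1.02 ± 0.24), and *Rpph1*, the RNA of RNase P, had a log2 fold change of -1.01. *Sh3rf2*, *Sntg1*, *AC154912.3*, *Rpl37rt*, *Agap2*, *Snph*, *Bicd1* and *Tent5c* were the others downward.

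The results turned on single ND mice. Over the 424 DEGs that were higher, ND replicate 1 lay at or above the lowest 40% HFD mouse in 197, ND replicate 2 in 7 and ND replicate 3 in 21. Without ND replicate 1, 71 genes had an adjusted p below 0.05 (45 higher, 26 lower) and 1953 were DEGs, of which 1329 (7.88%) were higher. Of the 71, 16 were genes of the lists, 9 of them lower genes of the pancreas list, and the 7 higher ones were *Lep*, *Sfrp5*, *Fgf13*, *Npr3*, *Pnpla3*, *Col15a1* and *Ighm*. The lower genes outside the lists included further pancreatic enzyme genes, *Amy2a1*, *Amy2a2*, *Amy2a3*, *Amy2a4*, *Try5* and *Ctrl*. *Ctrl* was at 0.0472, 7.56 and 4.95 normalized CPM with ND and at 0, 0.134 and 0 with 40% HFD. The log2 fold change of *Lep* was then 3.17, of *Sfrp5* 3.68 and of *Pnpla3* 4.01 (adjusted p = 0.0465, 0.00878 and 0.0343, limma). Without ND replicate 2, on the other hand, 206 genes were DEGs, 0.654% of those tested on the higher side, and none had an adjusted p below 0.05. No gene of the fat expansion, adipocyte or unfolded protein response lists was then a DEG, and of the de novo lipogenesis list 1 and of the collagen list 2 were. Without 40% HFD replicate 1, too, none of the 15 adipocyte markers was a DEG. *Lep* was a DEG with all 6 mice and without ND replicate 1, and in none of the other 5 fits that left out a mouse. *Pnpla3* and *Col15a1* were DEGs whichever mouse was left out, *Sfrp5* in all but the fit without ND replicate 2, and *Fasn* in all but those without ND replicate 2 or 3. The unfolded protein response list had 3 DEGs higher without 40% HFD replicate 2 (beside 1.71% of all genes), 6 without ND replicate 3 (1.53%), 9 without 40% HFD replicate 1 (1.62%) and 7 without 40% HFD replicate 3 (2.06%).

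**Figure D4:**
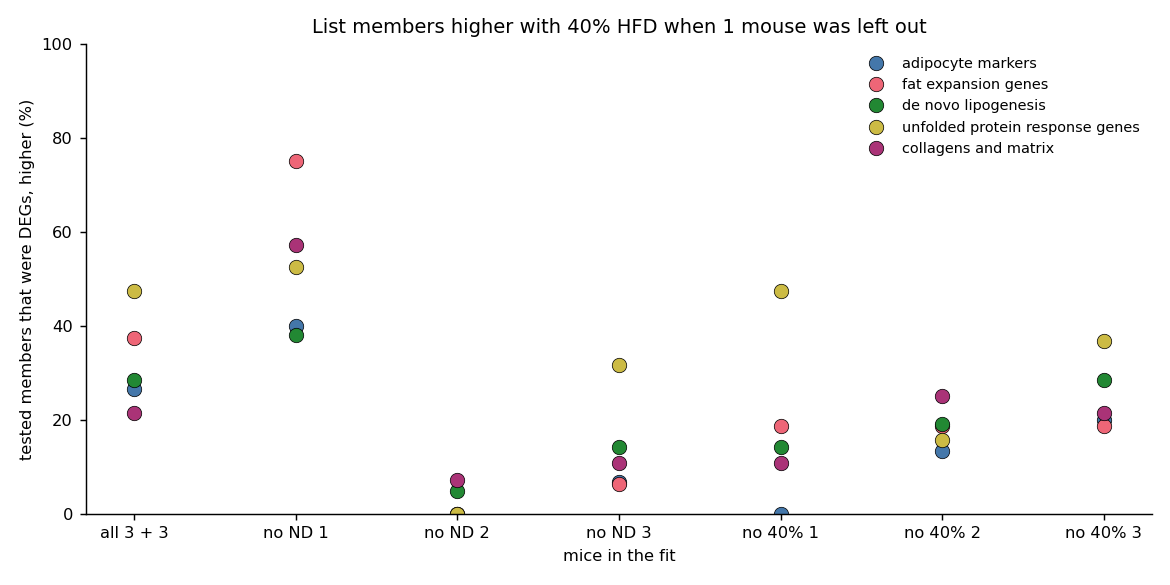
Percent of the tested members of 5 lists that were DEGs higher with 40% HFD (y axis) with all 3 + 3 mice and with each mouse left out in turn (x axis). The 5 points are highest without ND replicate 1, where 12 of 16 fat expansion genes were DEGs, and lowest without ND replicate 2, where 0 of 16 were, with the adipocyte list also at 0 without 40% HFD replicate 1.

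The same diets were compared in 6 other CCL19-KI mice, which carried a ligature. There the hepatocyte list also differed, with a mean log2 score of 8.15, 1.18 and 1.33 with ND and of 8.45, 10.5 and 7.01 with 40% HFD. *Sfrp5* was at 17.5, 22.5 and 32.0 normalized CPM with ND and at 424, 252 and 185 with 40% HFD (log2 fold change 3.48 ± 0.68, adjusted p = 0.00469, limma). *Fgf13* was at 2.12, 4.24 and 5.09 against 70.3, 39.2 and 42.0 (3.43 ± 0.83, adjusted p = 0.0190). For *Sfrp5* and *Fgf13*, all 3 ligatured ND mice thus lay near unligatured ND replicates 2 and 3 and far below replicate 1. *Lep* was at 195, 379 and 569 against 2292, 1376 and 573, and *Hspa5* at 340, 263 and 221 against 416, 486 and 439. *Fasn*, in contrast, was at 1073, 1164 and 719 against 1212, 850 and 2203 (0.45 ± 0.70) and overlapped. For *Fasn* the ligatured ND mice lay nearer unligatured ND replicate 1 than replicates 2 and 3. In the fat expansion list 8 of 16 genes were DEGs, all higher, and in the unfolded protein response list 7 of 19, beside 6.93% of all 17852 genes tested. The difference between the effects with and without ligature had an adjusted p below 0.05 for no gene by limma (1190 at an unadjusted p under 0.05) or by edgeR (1331), and 1052 genes (5.89%) met the DEG criteria. Without the 2 libraries that went against their labels, 35 genes passed.

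In WT mice the 40% HFD comparison ran otherwise. The fat expansion list had a median of -0.82 with 4 DEGs lower, the adipocyte list -0.77 with 4 lower, the de novo lipogenesis list -0.77 with 6 lower and 4 higher, and the unfolded protein response list 0.18 with 1 higher. Beside them, 8.36% of all genes were DEGs higher and 4.86% lower. These WT counts include the library that went against its label and were not repeated without it. *Fasn* was at 2658, 1394 and 7229 normalized CPM in WT mice fed ND and at 310, 614 and 1221 with 40% HFD, the value of 1394 being that of the library that went against its label. The WT mice fed ND also had a low hepatocyte list score, 1.17 ± 0.07 (SD, n = 3) against 9.96 ± 1.16 with 40% HFD. By read share the list took 0.0137, 0.121 and 0.156% in these ND mice, beside 0.145% in CCL19-KI ND replicate 1. The part of hepatocyte RNA in the WT values was not tested. The difference between the diet effects in CCL19-KI and WT mice met the DEG criteria in 2780 genes (16.4%) and had an adjusted p below 0.05 in 4 (0.0236%, limma), *Mup7*, *Muc5ac*, *Reg3g* and *Bpifa1*. For *Fasn* that difference was 4.26 ± 1.03 (adjusted p = 0.170), for *Pnpla3* 4.43 ± 1.21 (0.172) and for *Lep* 3.38 ± 1.21 (0.194), and for *Hspa5* it was 0.65 ± 0.51 (0.528). Of the 16 fat expansion genes 10 met the DEG criteria for the difference, all larger in CCL19-KI mice, and of the 21 lipogenic genes 11 were larger and 2 smaller, beside 8.98% of all genes larger and 7.45% smaller. Without the 2 libraries that went against their labels, no gene passed the adjusted p and 3541 met the criteria. With the hepatocyte score as a covariate, 632 did.

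Mice fed 60% HFD were set against those fed 40% HFD directly, because their comparisons with ND share the ND mice. Of 24 genes with an adjusted p below 0.05 (limma, 0.142% of those tested), 16 were lower and 8 higher with 60% HFD. The 5 largest differences downward were in major urinary protein genes, which the liver expresses and which share reads. *Mup7* was at 1093, 3623 and 2627 normalized CPM with 40% HFD and at 1.82, 1.23 and 2.36 with 60% HFD, while the hepatocyte list score was 5.13, 5.93 and 1.42 with 60% HFD. *Trim36* (3.87), *St6galnac2* and *Cnbd2* (2.51) were among the genes higher. The epididymis list score was 4.67, 5.30 and 8.05 with 60% HFD against 0.08, 0.35 and 0.06 with 40% HFD. The male germ cell list score was 6.88, 2.07 and 3.66 against 0.75, 0.79 and 0.75. The part of RNA of other tissues in the genes higher or lower was not tested. *Lep* was at 1618, 1779 and 1646 with 60% HFD and did not differ by the DEG criteria (0.22, adjusted p = 0.919, limma). *Plin4*, at 738, 1118 and 2383, was lower than with 40% HFD (-1.29, adjusted p = 0.168, limma) by the DEG criteria, though its groups overlapped through the value of 2383, which is that of the library that went against its label. The adipocyte list had 6 DEGs, all lower with 60% HFD, beside 7.2% of all genes, and the fat expansion list 1. Without the 2 libraries that went against their labels, 78 genes passed the adjusted p.

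**Figure D5:**
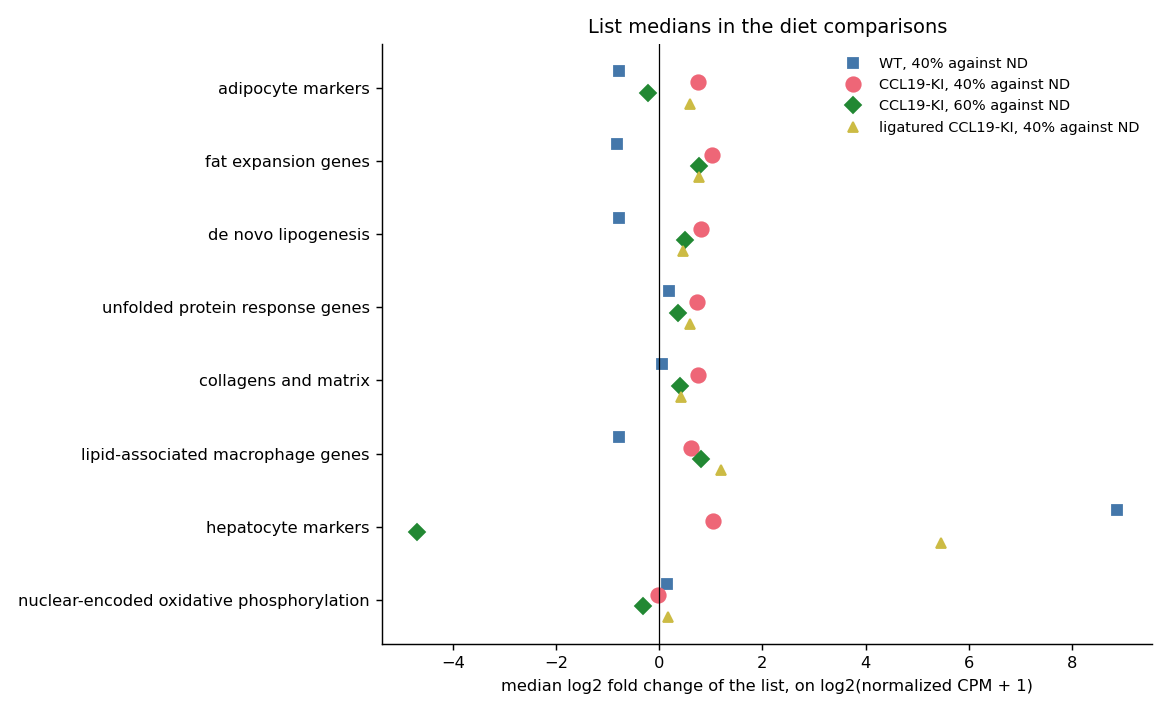
Median log2 fold change (x axis) of 8 lists in 4 diet comparisons, with squares for WT, circles for unligatured CCL19-KI with 40% HFD, diamonds for CCL19-KI with 60% HFD and triangles for ligatured CCL19-KI mice. The circles and diamonds share the ND mice. The fat expansion list lies at -0.82 in WT and at 1.02, 0.78 and 0.76 in the 3 CCL19-KI comparisons, and the hepatocyte list spans -4.69 to 8.88.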

How the data were processed

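Total RNA of eWAT was depleted of ribosomal RNA and sequenced as strand-specific pairs of 150 bases. The authors trimmed reads with Trimmomatic (v0.38), aligned and counted them with Bowtie2 and RSEM (v1.3.0) and normalized with edgeR. The deposited signal is normalized CPM for 24750 genes in 36 libraries. The paper's methods name mm10 and the submitters' processing notes GRCm39, so positions here come from GENCODE M21 (GRCm38) by gene identifier, with promoters from RefSeq. Every deposited value was a whole number of reads (tolerance 0.01), and these recovered reads gave depth and the edgeR test. Counting error only is covered by the floor of 3 reads.

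Log2(normalized CPM + 1) was fitted with limma (v3.58.1, R v4.3.3), 1 mean per group with an intensity trend, for the 18 mice without ligature label (all 36 for the ligature comparison), for genes that reached 1 normalized CPM in 3 libraries or more. Benjamini-Hochberg adjustment covered all genes tested. An exact test of 3 against 3 mice cannot go below 0.1. Genes named are members of 38 lists, and the 15 largest differences in each direction among genes whose groups did not overlap, with an adjusted p below 0.05 or, in their absence, the DEG criteria (genes with only a clone-type symbol left out), with the same for the other comparisons up to 5 in each direction. 1 gene that this rule selects is not reported here. Members and lists were chosen with earlier results of these data known. The labels name no culture, litter or day. Alternatives were the pseudocount, filter, scaling, edgeR (v4.0.16), a replicate block, the mice in the fit and each mouse left out. The hepatocyte covariate and the fit without the 2 libraries against their labels were chosen after seeing the data. The fits were run on simulated reads with the same dispersion for all genes and equal expected levels in the mice of a group. That setting does not hold a mouse that departs from its group as ND replicate 1 did. Figures used Python (v3.11.15) and matplotlib (v3.10.9).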

Additional observations from a re-analysis of the deposited data

Results flagged for a closer look

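The effect of 40% HFD differed between CCL19-KI and WT mice in 4 genes by limma's test of the difference. The difference (effect in CCL19-KI minus that in WT, log2 scale) was 2.51 for *Muc5ac*, a gel-forming mucin (adjusted p = 0.00255), 2.75 for *Reg3g*, an antibacterial lectin (adjusted p = 0.0164), and 4.71 for *Bpifa1*, an airway and nasal secretory protein (adjusted p = 0.0336). The CCL19-KI mice had almost no reads of these 3 genes with either diet, so that the differences rest on WT mice fed ND. *Bpifa1* was at 21.8, 77.5 and 9.20 normalized CPM there, *Reg3g* at 4.24, 11.0 and 3.80 and *Muc5ac* at 6.91, 3.23 and 4.55. For *Mup7*, a major urinary protein gene of the liver, the difference was -10.57 (adjusted p = 0.0336), with 84.2, 1358 and 5886 normalized CPM in CCL19-KI mice fed ND and 0.163, 0.111 and 0 in WT mice fed ND. WT mice fed ND include the library that went against its label, and without the 2 such libraries no gene had an adjusted p below 0.05.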

How the results depend on the processing

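Diet comparison in unligatured CCL19-KI mice. There were 623 DEGs, against 357 with a pseudocount of 5. Without both libraries against their labels there were 742, and 0 genes passed the adjusted p. With the hepatocyte score as a covariate there were 1255, and 3 genes had an adjusted p below 0.05. Leaving out 1 mouse gave 206 to 1953 DEGs and 0 to 71 adjusted calls. Quantile normalization split the DEGs 300 higher to 257 lower. Of 60 named DEGs, 42 were DEGs with edgeR, 49 after quantile normalization and 21 to 54 with 1 mouse left out, and none changed direction. *Alb* ran from -0.203 without ND replicate 1 to 2.35 without ND replicate 3. The labels do not say whether replicate numbers pair the mice. Correlations of same-numbered deviations were 0.66, 0.48 and 0.07, and ND replicate 3 correlated best with 40% HFD replicate 2. Such correlations from 3 mice per group cannot decide it. With the replicate block 624 genes were DEGs and 0 passed the adjusted p.

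Difference from WT, adjusted calls (4). There were 12 with a pseudocount of 0.1, 1 with 5, 2 without filter, 0 at a mean of at least 5 normalized CPM, 317 with edgeR, 0 in only the groups compared, 441 with all 36 mice, 0 without both libraries against their labels, 0 with the hepatocyte covariate (632 DEGs) and 3 with the replicate block. Leaving out 1 mouse gave 0 to 1943 adjusted calls and 1703 to 4405 DEGs.

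60% against 40% HFD, adjusted calls (24). There were 14 with a pseudocount of 5, 88 after quantile normalization, 2 with edgeR, 1701 with all 36 mice, 78 without both libraries against their labels and 3 with the hepatocyte covariate (1788 DEGs). A mean of at least 5 left 1683 DEGs. Leaving out 1 mouse gave 0 to 808 adjusted calls and 1788 to 3153 DEGs.

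Difference between ligatured and unligatured mice, adjusted calls (0). There was 1 with a pseudocount of 5 (661 DEGs), 1 without filter, 3 in only the groups compared and 35 without both libraries against their labels. A mean of at least 5 left 429 DEGs. Leaving out 1 mouse gave 0 to 158 adjusted calls and 681 to 2332 DEGs. The cause of these shifts was not tested.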

Other observations

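Ribosomal protein genes were a group chosen after their values were seen. Of 81 tested, 12 were DEGs, all lower with 40% HFD in unligatured CCL19-KI mice, beside 1.18% of all genes, and 79 had a negative log2 fold change. For 65 of them all 40% HFD mice lay below all ND mice, beside 7.12% of all genes. The median was -0.36, beside 0.00 for all genes tested. These genes share reads with many pseudogenes.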
